A study of Mus musculus with 23 samples.

Results

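The Rhox genes are a cluster of homeobox genes, which encode transcription factors, on the mouse X chromosome. They are expressed mainly in reproductive tissues. Rhox5 and Rhox8 are known from the Sertoli cells of the testis, the somatic cells that nurse the germ cells, where androgen acts on Rhox5. Rhox10 is known from spermatogonia and their stem cells, and Rhox13 from germ cells around the start of meiosis, where retinoic acid promotes translation of its mRNA. DNA methylation silences much of the cluster in cells that do not use it.

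Of 8 listed genes (Rhox1, Rhox5, Rhox6, Rhox8, Rhox9, Rhox10, Rhox11 and Rhox13), 7 had a probe set under their symbol in the array's table of 19661 genes, 1 probe set each. Rhox5 was not analysed here, because no probe set carried its symbol. Of these 7, 5 passed a filter that left out the 25% of genes with the lowest mean signal, at a log2 level of 5.125. They were Rhox1, Rhox6, Rhox8, Rhox9 and Rhox13, and they were among the 14745 genes tested, of which 474 were X-linked. Rhox10 and Rhox11 lay below the filter, as did Rhox12, the 1 other Rhox gene with a probe set.

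RNA levels in testes were read on Affymetrix Mouse Gene 1.0 ST arrays. The mice were 14.5 days old, when germ cells of the first wave have entered meiosis. Each array held RNA pooled from 4 testes. The hybrids between subspecies were PWDxB6 (3 arrays) and B6xPWD (3 arrays). PWDxPWK (2 arrays) is a cross within a subspecies, as are B6xBALB/C (6 arrays) and the reverse cross BALB/CxB6 (3 arrays). The inbred strains were PWD (3 arrays) and B6 (3 arrays). PWD and PWK derive from Mus musculus musculus, while B6 and BALB/C are laboratory strains of mainly Mus musculus domesticus origin. By the usual convention a cross is named with its mother first, so PWDxB6 males have a PWD X and a B6 Y, and B6xPWD males have a B6 X and a PWD Y. PWDxB6 males are known in the field to be sterile. The authors left out a further PWDxPWK array as an outlier, per the series' design text. The labels describe isolated spermatogenic cells, yet the mean level of 16 Sertoli cell markers lay between 9.40 and 9.94 on all arrays, so Sertoli RNA was present. In such pooled tissue, fewer cells of a type and less RNA per cell cannot be told apart.

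The windows of 250 bases before the annotated start are shown for the member whose level differed most between genotypes (Rhox13), for the member known from stem cells (Rhox10) and for Rhox1 at the other end of the cluster. They are RefSeq sequences of GRCm38.p6, the genome of the B6 strain, with CG dinucleotides, the sites of DNA methylation, in capitals. The window of Rhox13 is chrX:38120590-38120839 on the plus strand, that of Rhox10 is chrX:38066225-38066474 on the plus strand, and that of Rhox1 is chrX:37222259-37222508 on the minus strand.
Rhox13: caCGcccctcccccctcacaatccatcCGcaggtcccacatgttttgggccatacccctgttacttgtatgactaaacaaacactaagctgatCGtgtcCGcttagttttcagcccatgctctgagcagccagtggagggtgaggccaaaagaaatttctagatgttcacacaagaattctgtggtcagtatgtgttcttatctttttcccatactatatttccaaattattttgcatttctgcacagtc
Rhox10: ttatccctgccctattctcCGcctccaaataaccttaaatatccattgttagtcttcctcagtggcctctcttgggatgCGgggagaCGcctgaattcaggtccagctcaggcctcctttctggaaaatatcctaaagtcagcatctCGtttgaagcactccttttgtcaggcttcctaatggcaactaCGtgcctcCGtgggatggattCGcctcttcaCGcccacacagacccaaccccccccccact
Rhox1: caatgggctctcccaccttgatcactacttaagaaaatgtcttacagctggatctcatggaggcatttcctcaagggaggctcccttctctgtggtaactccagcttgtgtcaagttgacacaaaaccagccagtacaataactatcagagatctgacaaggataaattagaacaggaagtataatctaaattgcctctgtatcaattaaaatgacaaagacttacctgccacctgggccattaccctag
The Rhox13 window held 4 CG dinucleotides, a number that 62.2% of 32851 promoter windows of this length reached. The Rhox10 window held 8, which 43% of windows reached, and the Rhox1 window held 0. Half-sites of the androgen receptor (TGTTCT), of nuclear receptors (AGGTCA) and of the cAMP response element (TGACG) were searched on both strands. TGTTCT had 1 match in the Rhox13 window and 1 in the Rhox1 window, and 16.1% of all windows held it. AGGTCA and TGACG had 0 matches in these 3 windows, against 14% and 17.8% of all windows that held them. The windows of Rhox6, Rhox8 and Rhox9 were not analysed here.

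**Figure D1:**
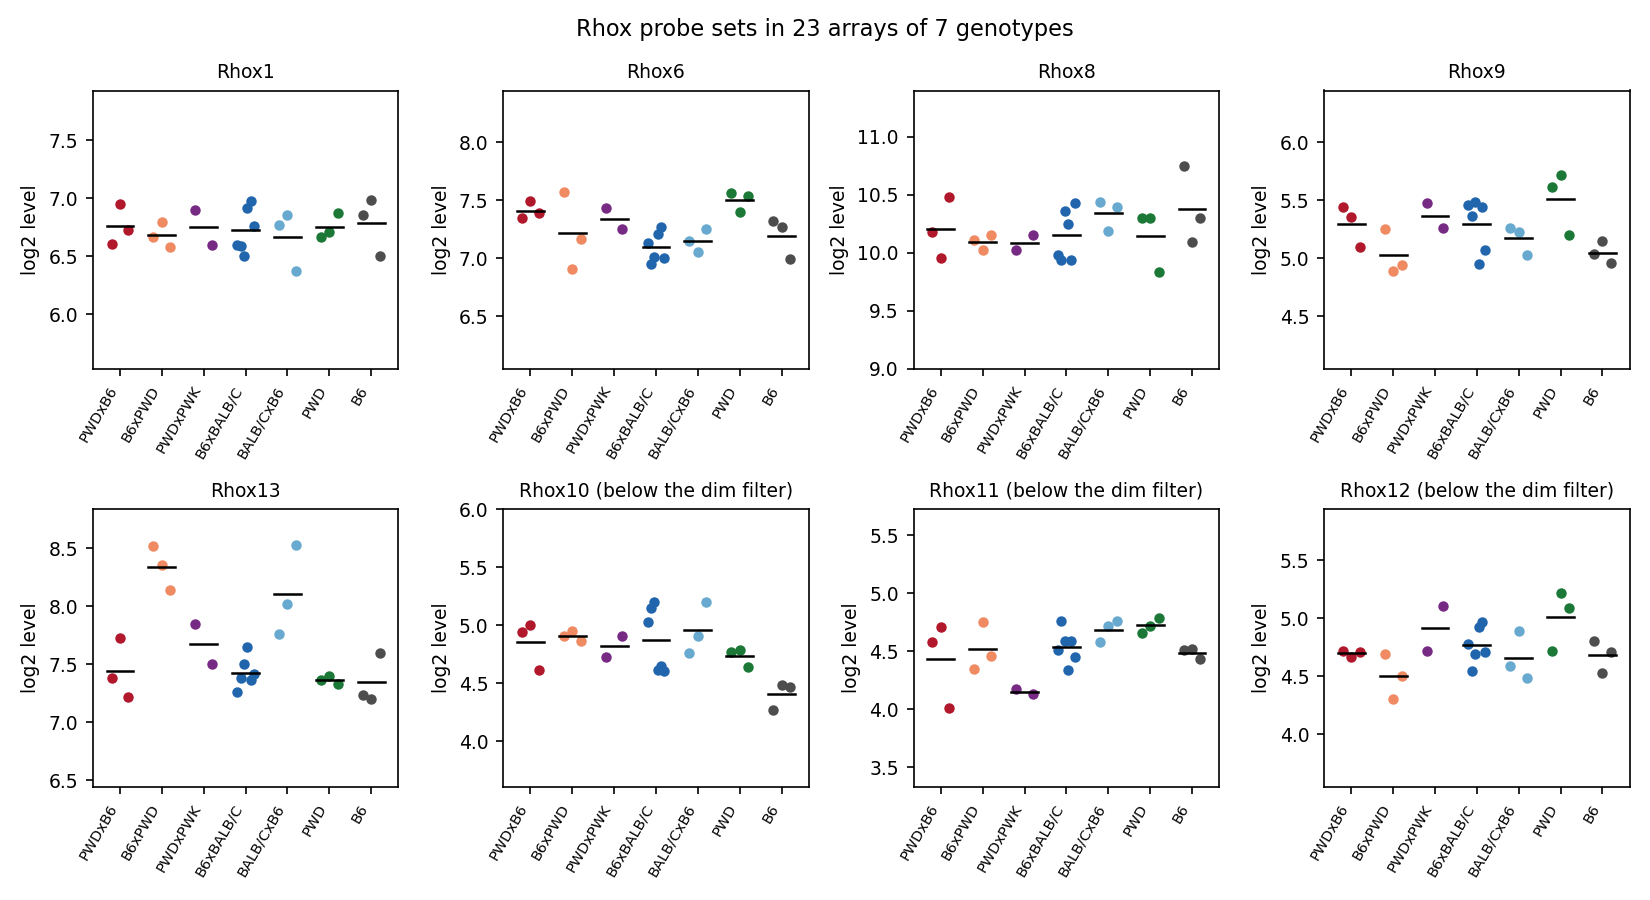
Log2 level of each Rhox probe set (vertical axis, the same span in every panel) on each of 23 arrays in 7 genotypes, with a point per array and a line at the genotype mean. For Rhox13 all B6xPWD arrays, at 8.14 to 8.52, lie above all B6 arrays, at 7.20 to 7.60, and the highest single array, at 8.53, is of BALB/CxB6, while the points of the other genes lie closer together.

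Rhox13 had the widest range of the 7 members measured, and its highest genotype mean was in B6xPWD. Its log2 levels were 7.38, 7.73 and 7.22 in PWDxB6 and 8.52, 8.36 and 8.14 in B6xPWD. They were 7.85 and 7.50 in PWDxPWK. The 6 B6xBALB/C arrays ran from 7.26 to 7.65 with a median of 7.40, and the BALB/CxB6 arrays read 7.76, 8.02 and 8.53. The inbred strains gave 7.37, 7.40 and 7.33 in PWD, and 7.24, 7.20 and 7.60 in B6. All B6xPWD arrays lay above all arrays of PWDxB6, PWDxPWK, B6xBALB/C, PWD and B6, and they overlapped only with BALB/CxB6. By genotype mean the order was B6xPWD (8.34 ± 0.19, SD, n = 3), BALB/CxB6 (8.10 ± 0.39, n = 3), PWDxPWK (7.68 ± 0.24, n = 2), PWDxB6 (7.44 ± 0.26, n = 3), B6xBALB/C (7.43 ± 0.13, n = 6), PWD (7.37 ± 0.04, n = 3) and B6 (7.34 ± 0.22, n = 3). The ranges of every pair of neighbours in that order overlapped.

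Between the reciprocal hybrids, Rhox13 was lower in PWDxB6 than in B6xPWD by a log2 difference of -0.90 (SE 0.165, limma adjusted p = 0.00632), with no overlap of arrays. This is a level 1.86 times as high in B6xPWD. It was the only tested member called, 1 of 5, where 2.83% of all genes and 11.8% of X-linked genes were called. Among the 474 X-linked genes it ranked 14 in its direction. The other 4 differed by between 0.08 (Rhox1) and 0.28 (Rhox9, 95% interval -0.04 to 0.59, limma adjusted p = 0.294). These hybrids have different X chromosomes, so strain differences in the probed sequence and in the RNA level cannot be told apart. The call was lost without PWDxB6 replicate 3, where the difference was -0.784 (adjusted p = 0.0586).

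A comparison of each hybrid with the parent strain of the same X avoids that difference in sequence. In B6xPWD against B6, Rhox13 was higher by 0.99 (SE 0.165, adjusted p = 0.000697), a level 1.99 times as high, and no arrays overlapped. In PWDxB6 against PWD, its difference was 0.08 (SE 0.165, 95% interval -0.27 to 0.42, adjusted p = 0.914), and the arrays overlapped. The difference between these comparisons, (PWDxB6 minus PWD) minus (B6xPWD minus B6), was -0.92 (SE 0.234, adjusted p = 0.0164), and -0.807 without PWDxB6 replicate 3 (adjusted p = 0.0554). The background was 17% of genes called in B6xPWD against B6, 2.31% in PWDxB6 against PWD, and 9.01% for the difference between them. Of X-linked genes, 23%, 4.01% and 5.91% were called, in the same order. Of the 5 tested members, 1, 0 and 1 were called in these comparisons, Rhox13 both times. For the other 4, differences in B6xPWD against B6 ran from -0.29 (Rhox8, adjusted p = 0.249) to 0.03 (Rhox6). Among the 474 genes of the X, PWDxB6 had 17 above PWD and 2 below it, and B6xPWD had 92 above B6 and 17 below it, where Rhox13 ranked 19 of the 474 in its direction. The calls in B6xPWD against B6 and in the difference between the comparisons were lost with the array's level of ribosomal protein genes as a covariate, as described with those genes.

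Against the cross within a subspecies that has the same X, Rhox13 was higher in B6xPWD than in B6xBALB/C by 0.91 (SE 0.143, adjusted p = 0.000377), again with no overlap. It was 1 of 5 tested members called, beside 9.3% of all genes and 19.6% of X-linked genes. PWDxB6 against PWDxPWK gave -0.23 (SE 0.185, 95% interval -0.62 to 0.15, adjusted p = 0.73), and 0 of 5 members were called beside 1.43% of genes. At an unadjusted p under 0.05, that last count was 0 of 5, beside 1662 of the 14745 genes. These comparisons share hybrid arrays with those above.

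Crosses and strains without a hybrid between subspecies varied too. Rhox13 was lower in B6xBALB/C than in BALB/CxB6 by -0.67 (SE 0.143, adjusted p = 0.0436), with no overlap, and ranked 12 of 14745 genes in its direction. As the X chromosomes of these crosses differ (B6 and BALB/C), strain differences in the probed sequence and in the RNA level cannot be told apart. Only 0.441% of genes and 1.48% of X-linked genes were called in that comparison, and Rhox13 was 1 of 5 tested members. Of 24 alternative settings, 14 kept this call. It was lost in 6 of the settings that left out 1 array, the B6xBALB/C replicates 1, 2, 3 or 5 or the BALB/CxB6 replicates 2 or 3. Without BALB/CxB6 replicate 3, the highest array of the 23, the difference was -0.46 (adjusted p = 0.333). PWD and B6 differed in Rhox13 by 0.02 (SE 0.165, 95% interval -0.32 to 0.37). PWDxPWK against PWD gave 0.31 (SE 0.185, 95% interval -0.07 to 0.69, adjusted p = 1), and B6xBALB/C against B6 gave 0.08 (SE 0.143, 95% interval -0.21 to 0.38). None of the 5 members was called in PWDxPWK against PWD or in B6xBALB/C against B6 by limma, where 0.00678% and 3.99% of genes were called. At an unadjusted p under 0.05 their counts were 0 and 0, beside 419 and 3272 of the 14745 genes.

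**Figure D2:**
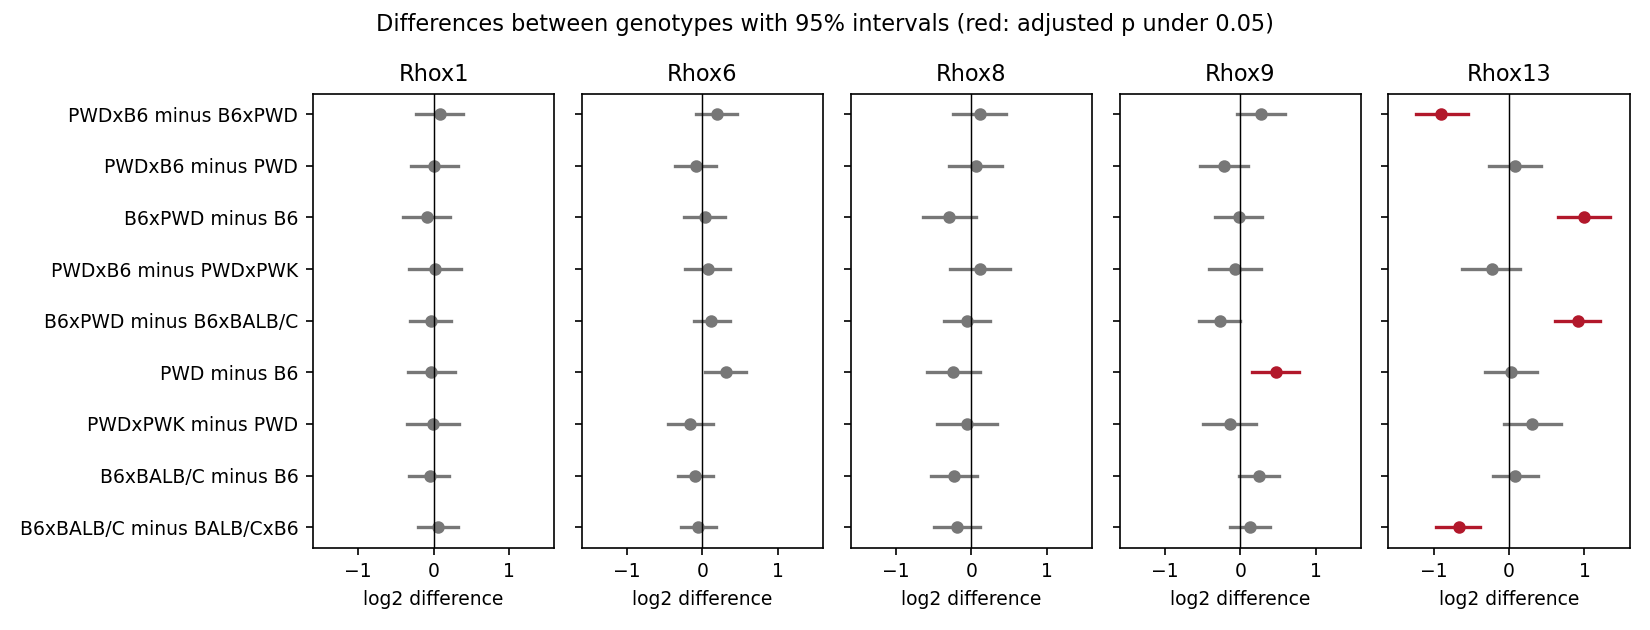
Log2 differences (horizontal axis, first genotype minus second) of the 5 tested Rhox genes in 9 comparisons, with 95% intervals from the model. Red marks an adjusted p under 0.05, which Rhox13 reached in 4 comparisons and Rhox9 in 1, PWD minus B6 at 0.47.

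The Rhox13 level moved with a wide set of other genes. Among all genes tested, those with the highest Pearson r to it over the 23 arrays were Rps21 (0.92), a small ribosomal subunit protein, Uqcrh (0.91), a subunit of respiratory complex III, and Naa38 (0.91), a subunit of an N-terminal acetyltransferase. After genotype means were taken out, r was 0.80, 0.83 and 0.70. The points share normalization and RNA pools, and r is given as a description.

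That likeness led to a further measurement, chosen after these values were seen. It was the mean level per array of 23 autosomal ribosomal protein genes and of 73 autosomal respiratory chain genes. Rps21 and Uqcrh, picked for their likeness to Rhox13, are themselves in these sets. The r values and covariate fits below are therefore not separate evidence of that likeness. Both sets were taken by gene symbol, and the symbols of the second also cover ATP synthase subunits and complex I assembly factors. Ribosomal protein genes lay between 8.48 and 8.79 in PWDxB6 and between 8.88 and 9.22 in B6xPWD. They ran from 8.53 to 8.67 in PWDxPWK, from 8.40 to 8.76 in B6xBALB/C, from 8.64 to 9.20 in BALB/CxB6, from 8.46 to 8.54 in PWD and from 8.35 to 8.58 in B6. The 4 arrays highest in Rhox13, the B6xPWD arrays and BALB/CxB6 replicate 3, were also the 4 highest in ribosomal protein genes. Over 23 arrays, r with Rhox13 was 0.90 for ribosomal protein genes and 0.86 for respiratory chain genes, and 0.81 and 0.74 within genotypes. For Rhox10, which lay below the dim filter, r was 0.61 and 0.56, and for Rhox1, Rhox6, Rhox8 and Rhox9 it lay between -0.30 and -0.14.

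With the ribosomal protein level of each array as a covariate, the Rhox13 difference was -0.34 in PWDxB6 against B6xPWD (adjusted p = 0.382). It was 0.306 in B6xPWD against B6 (adjusted p = 0.654) and 0.44 in B6xPWD against B6xBALB/C (adjusted p = 0.0713). With the respiratory chain level in its place, these were -0.428 (adjusted p = 0.246), 0.467 (adjusted p = 0.275) and 0.53 (adjusted p = 0.034). The covariate itself separated genotypes, since all B6xPWD arrays lay above all B6 and B6xBALB/C arrays in ribosomal protein genes. In those genotypes its share and that of the cross cannot be told apart. The difference in B6xBALB/C against BALB/CxB6 was -0.436 with the ribosomal covariate (adjusted p = 0.0223) and -0.53 with the respiratory chain covariate (adjusted p = 0.013).

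**Figure D3:**
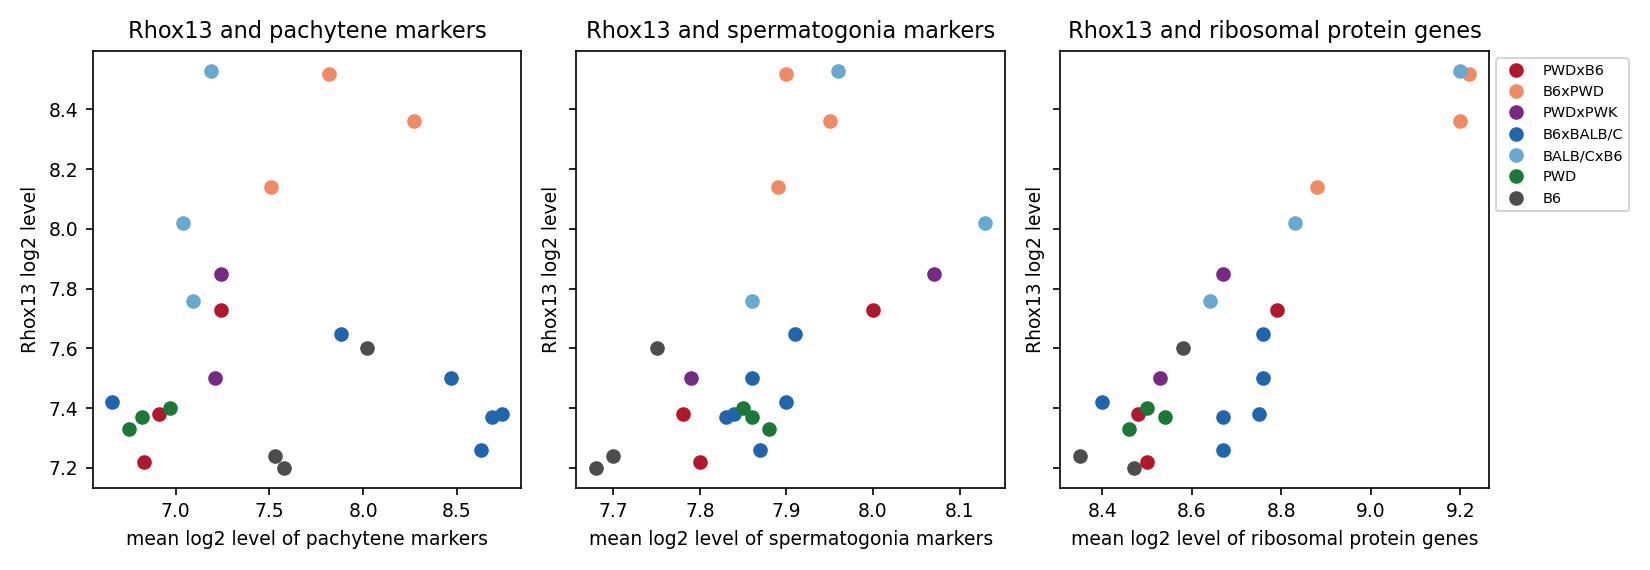
Rhox13 log2 level on 23 arrays (vertical axis) against the mean log2 level of 16 pachytene markers, 20 spermatogonial markers and 23 ribosomal protein genes on the same arrays, coloured by genotype. The points follow the ribosomal protein genes (r = 0.90) and show no trend with the pachytene markers (r = 0.03).

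Markers of germ cell stages were set beside Rhox13. The mean of 16 pachytene markers, genes of mid-meiotic spermatocytes, was 6.91, 7.24 and 6.83 in PWDxB6 and 7.82, 8.27 and 7.51 in B6xPWD. It was 7.53, 7.58 and 8.02 in B6, where Rhox13 was lowest. On the B6xBALB/C arrays it ranged from 6.66 to 8.74 while Rhox13 stayed between 7.26 and 7.65. Over all arrays its r with Rhox13 was 0.03. For the mean of 17 markers of early meiotic prophase, r with Rhox13 was 0.25, or 0.08 within genotypes. The mean of 20 spermatogonial markers was 7.86 ± 0.12 in PWDxB6, 7.91 ± 0.03 in B6xPWD and 7.71 ± 0.03 in B6 (SD, n = 3 each), and its r with Rhox13 was 0.58, or 0.51 within genotypes. Among somatic lists, r with Rhox13 was -0.68 for peritubular, -0.67 for endothelial and -0.58 for Leydig cell markers, and -0.51, -0.64 and -0.30 within genotypes. It was -0.38 for macrophage markers, or -0.57 within genotypes, and -0.07 for Sertoli markers.

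In B6xPWD against B6, 5 of 20 spermatogonial markers were higher and 0 lower, with a median difference of 0.18 beside -0.01 over all genes. As 17% of all genes were called, 1431 higher and 1072 lower, the counts of called markers in this comparison are read against that background. They included Stra8 (0.96, SE 0.161, adjusted p = 0.00076), which retinoic acid induces as meiosis begins, Sohlh2 (0.66) and Sohlh1 (0.60), transcription factors of differentiating spermatogonia, and Ret (0.39), a growth factor receptor of stem cells. Of 17 markers of early meiotic prophase, 4 were higher: Sycp3 (1.10) and Syce2 (0.87) of the synaptonemal complex, the recombinase Dmc1 (0.36) and Mei1 (0.44). Some markers of somatic cells passed the test as lower and the others did not pass it: 4 of 16 passed for Sertoli cells, 2 of 3 for Leydig cells, 1 of 5 for peritubular cells, 3 of 5 for endothelial cells and 3 of 4 for macrophages. The part of these shifts in the Rhox13 difference was not tested. Rhox13 kept its call with a Sertoli or a pachytene score as a covariate. Within genotypes, however, its r was only 0.08 with Sertoli and 0.12 with pachytene markers, so such covariates could change its difference little. In PWDxB6 against B6xPWD only 2.83% of all genes were called, and the marker counts there are read against that share. By limma 0 of 20 spermatogonial and 0 of 16 pachytene markers were called, with medians of -0.01 and -0.62 beside 0.03 over all genes. Of 17 early meiotic markers 1 was lower, Tex101, a germ cell surface protein (-0.75, SE 0.199, adjusted p = 0.0439). Of 5 peritubular markers 2 were higher, Des (0.55, adjusted p = 0.0327) and Cnn1 (0.56, adjusted p = 0.0479), proteins of the contractile cytoskeleton. In this comparison Rhox13 kept its call with a pachytene score as a covariate (-0.853, limma adjusted p = 0.0231). It also kept its call with a Sertoli score (-0.911, limma adjusted p = 0.00895). The low r within genotypes limits these fits as well. Marker lists with a larger r were not used as covariates, so the part of the other markers in the Rhox13 difference was not tested.

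Rhox8, a Sertoli cell member, was not called in any of the 10 comparisons. Its levels were 10.18, 9.95 and 10.48 in PWDxB6, 10.11, 10.02 and 10.15 in B6xPWD, and 10.02 and 10.15 in PWDxPWK. B6xBALB/C ran from 9.94 to 10.43 with a median of 10.11, and BALB/CxB6 read 10.44, 10.19 and 10.39. PWD gave 10.30, 10.30 and 9.83, and B6 gave 10.75, 10.09 and 10.30. Genotypes next to each other in order of mean overlapped, while all B6xPWD and PWDxPWK arrays lay below all BALB/CxB6 arrays. PWDxB6 against B6xPWD gave 0.11 (SE 0.17, 95% interval -0.24 to 0.46, adjusted p = 0.733).

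Rhox8 varied between pools with the other Sertoli genes. Over 23 arrays its r with the mean of 16 Sertoli markers was 0.68, and it was 0.63 after genotype means were taken out, against -0.32 for Rhox9 and -0.07 for Rhox13. The genes most like it were Atp1b1 (0.83), a subunit of the sodium pump, Glb1l3 (0.81) and Kat2b (0.80), a histone acetyltransferase. A list for the androgen response of Sertoli cells, which also holds transcription factors of these cells such as Gata4, had 9 tested genes. Only the X-linked Tsx was called in PWDxB6 against B6xPWD, beside 2.83% of all genes and 11.8% of X-linked genes. It was higher in PWDxB6 than in B6xPWD (10.83 ± 0.17 against 9.64 ± 0.22, SD, n = 3 each, difference 1.19, limma adjusted p = 0.000481). In B6xPWD against B6, where 17% of all genes were called, 3 of the 9 were lower. They were Drd4 (-1.10), a dopamine receptor, Tubb3 (-0.74), a tubulin, and Gata4 (-0.45), a transcription factor also counted among the Sertoli markers. The list's median was -0.32 in that comparison, beside -0.01 over all genes.

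Rhox9 was the second member called in any comparison. Its levels were 5.62, 5.72 and 5.20 in PWD, against 5.04, 5.15 and 4.96 in B6, with no overlap. The difference was 0.47 (SE 0.151, limma adjusted p = 0.0339), and Rhox9 was 1 of 5 tested members called beside 18.4% of all genes. These strains have different X chromosomes. The mean of Rhox9 over all arrays, 5.25, was only just above the dim filter at 5.125, and its B6 mean of 5.05 lay below it. The call was lost without PWD replicate 1 or 2 or B6 replicate 1 or 3, where the adjusted p ran from 0.0791 to 0.165. In the hybrids Rhox9 read 5.44, 5.36 and 5.10 in PWDxB6 and 5.25, 4.89 and 4.94 in B6xPWD. The other crosses had 5.48 and 5.26 in PWDxPWK, 4.95 to 5.49 with a median of 5.41 in B6xBALB/C, and 5.26, 5.23 and 5.03 in BALB/CxB6. The genes most like Rhox9 were Hoxb6 (0.85), a homeobox gene, Celf4 (0.82), an RNA-binding protein, and Mmp9 (0.77), a matrix protease.

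Rhox6, a close relative of Rhox9 in the cluster, was not called in any comparison. It read 7.35, 7.49 and 7.39 in PWDxB6, 7.57, 6.91 and 7.17 in B6xPWD, and 7.43 and 7.25 in PWDxPWK. B6xBALB/C ran from 6.95 to 7.27 with a median of 7.07, and BALB/CxB6 gave 7.15, 7.05 and 7.25. PWD gave 7.56, 7.40 and 7.54, against 7.32, 7.27 and 6.99 in B6, with no overlap and a difference of 0.31 (SE 0.131, 95% interval 0.03 to 0.58, adjusted p = 0.11). Grouped by the origin of the X after these values were seen, Rhox6 ran from 7.25 to 7.56 on the 8 arrays with a PWD X. It ran from 6.91 to 7.57 on the 12 with a B6 X and from 7.05 to 7.25 on the 3 with a BALB/C X. The medians were 7.41, 7.15 and 7.15, and the genotypes with a PWD X held the 3 highest means of Rhox6. For Rhox9 the highest means were in PWD and PWDxPWK, while PWDxB6 and B6xBALB/C both averaged 5.30. The genes most like Rhox6 were Creb3l3 (0.83), a transcription factor, Syt13 (0.80) and Nfkbil1 (0.78).

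Rhox1 had the closest genotype means, from 6.67 to 6.78. It read 6.61, 6.95 and 6.73 in PWDxB6, 6.67, 6.80 and 6.58 in B6xPWD, and 6.90 and 6.60 in PWDxPWK. B6xBALB/C ran from 6.50 to 6.98 with a median of 6.68, and BALB/CxB6 gave 6.77, 6.86 and 6.37. PWD gave 6.67, 6.71 and 6.87, and B6 gave 6.86, 6.99 and 6.50. Arrays of 1 genotype differed by more than the genotype means did, and the largest difference in the 9 pairwise comparisons was -0.09 (B6xPWD minus B6, 95% interval -0.41 to 0.22). The genes most like Rhox1 were Xkrx (0.77), also X-linked, Olfr1394 (0.74) and Mlph (0.74).

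Rhox10 and Rhox11 lay below the dim filter, so their values come from a fit of all 19661 genes. Rhox10 read 4.94, 5.00 and 4.62 in PWDxB6, 4.91, 4.95 and 4.87 in B6xPWD, and 4.73 and 4.91 in PWDxPWK. B6xBALB/C ran from 4.61 to 5.20 with a median of 4.84, BALB/CxB6 gave 4.76, 4.91 and 5.20, PWD gave 4.77, 4.79 and 4.64, and B6 gave 4.27, 4.49 and 4.47. All B6 arrays lay below all other arrays. In that fit Rhox10 was higher in B6xPWD than in B6 by 0.50 (SE 0.154, limma adjusted p = 0.0386). That difference was 0.056 with the ribosomal protein level as a covariate and 0.159 with the respiratory chain level. PWD against B6 gave 0.32 (SE 0.154, adjusted p = 0.187), and B6xBALB/C against B6 gave 0.47 (SE 0.134, adjusted p = 0.0641). B6xPWD against B6xBALB/C gave 0.03 (SE 0.134, adjusted p = 0.924). Rhox11 read 4.17 and 4.13 in PWDxPWK, against 4.66, 4.72 and 4.79 in PWD, a difference of -0.57 with an adjusted p of 1. In PWDxB6 it gave 4.58, 4.71 and 4.01, and in B6xPWD 4.35, 4.75 and 4.46. Elsewhere it ran from 4.34 to 4.76 in B6xBALB/C, from 4.58 to 4.76 in BALB/CxB6 and from 4.43 to 4.52 in B6. At such levels differences are near the dim end of the array, and signal over background was not analysed here.

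The members did not move together. Over the 23 arrays the r of Rhox13 with the other tested members was -0.24 for Rhox1, -0.08 for Rhox6, -0.09 for Rhox8 and -0.37 for Rhox9, and it was 0.43 for Rhox10. Rhox6 and Rhox9 had an r of 0.38, and Rhox1 and Rhox10 had -0.53.

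**Figure D4:**
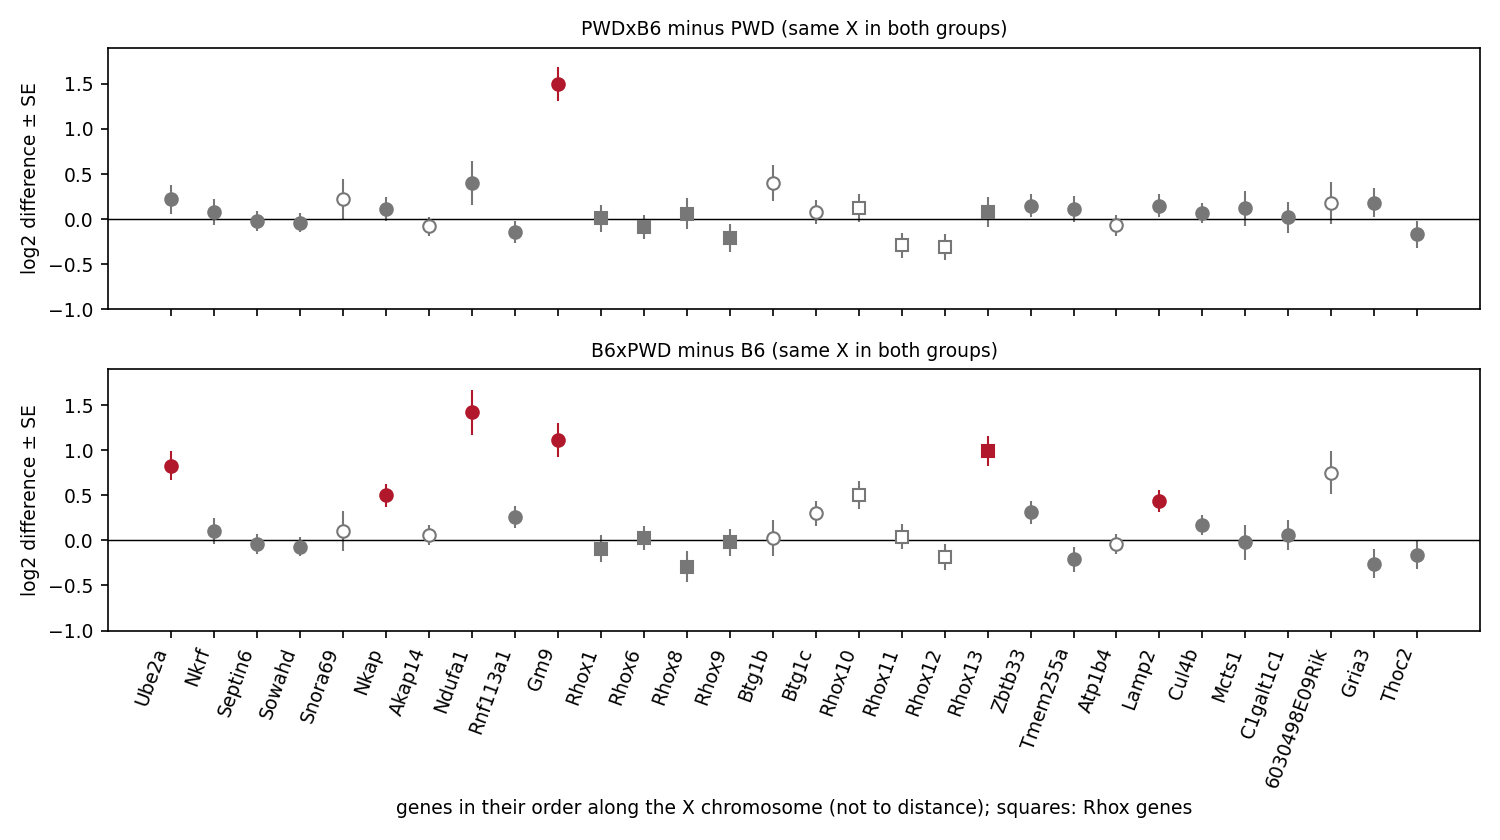
Log2 difference ± SE (vertical axis) of each gene in its order along the X around the Rhox cluster, for PWDxB6 minus PWD and B6xPWD minus B6. Squares are Rhox genes, open symbols lay below the dim filter, and red marks a call; Rhox13 at 0.99 and 5 flanking genes are called in B6xPWD, and Gm9 at 1.5 in PWDxB6.

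Genes flanking the cluster were taken as the 10 nearest on each side in the gene table, of which 16 of 20 were tested. In B6xPWD against B6, 5 of these 16 were higher and 0 lower, with a median of 0.14. In the same comparison 17% of all genes and 23% of X-linked genes were called, and the median over X-linked genes was 0.05. On the Rhox1 side they were Ndufa1 (1.42), a respiratory chain subunit, Gm9 (1.11), Ube2a (0.83), a ubiquitin-conjugating enzyme, and Nkap (0.50), and on the Rhox13 side Lamp2 (0.44), a lysosomal membrane protein. The immediate tested neighbour of Rhox13 on its far side, Zbtb33, differed by 0.31 (adjusted p = 0.0853). The genes called were thus interspersed with genes that were not, such as Rhox1, Rhox6, Rhox8 and Rhox9 between Gm9 and Rhox13. All these calls come from the fit without the ribosomal protein covariate.

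Gm9, the gene next to Rhox1, was higher in both hybrids than in the parent with the same X. Its difference was 1.5 in PWDxB6 against PWD (SE 0.188, adjusted p = 4.43e-05) and 1.11 in B6xPWD against B6 (SE 0.188, adjusted p = 0.00076). It ranged from 6.98 to 7.78 in PWDxB6 and from 5.94 to 6.63 in B6xPWD, against 5.66 to 5.91 in PWD and 5.11 to 5.55 in B6. It was also higher in PWDxB6 than in B6xPWD by 0.87 (adjusted p = 0.0176), the opposite direction to Rhox13. In PWDxB6 against PWD it was the only one of the 16 flanking genes called, beside 2.31% of all genes and 4.01% of X-linked genes.

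Other X-linked genes of the testis were read beside Rhox13. Of 13 tested, 9 were higher and 0 lower in B6xPWD against B6, where 17% of all genes and 23% of X-linked genes were called. The median of the 13 was 0.61 beside 0.05 over all X-linked genes. These calls come from the fit without the ribosomal protein covariate. The 9 included Fmr1nb (1.10), Taf7l (0.92), a subunit of a germ cell transcription factor complex, Tktl1 (0.89), a transketolase relative, and Tsga8 (0.81). In PWDxB6 against B6xPWD, 2 of 13 were lower, Magea5 (-1.87, SE 0.333) and Fmr1nb (-0.99, SE 0.176), both with a limma adjusted p of 0.00537. There 2.83% of all genes and 11.8% of X-linked genes were called. The probe set of Magea5 may share signal with near-identical copies of its family.

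Factors that silence the cluster and known targets of RHOX proteins were read as well. The 9 tested factors silence it through DNA or histone methylation or act against DNA methylation. In PWDxB6 against B6xPWD 0 of the 9 were called by limma, beside 2.83% of all genes. Hells was at -0.35 (adjusted p = 0.14) and Uhrf1 at -0.14 (adjusted p = 0.558). In B6xPWD against B6, 2 of the 9 were called, beside 17% of all genes. Hells, a chromatin remodeler needed for DNA methylation, was higher by 0.53 (SE 0.132, adjusted p = 0.00932). Tet1, an enzyme that oxidises methylated cytosine, was lower by -0.44 (SE 0.149, adjusted p = 0.0478). Of 5 known targets of RHOX proteins, 3 were tested. By limma 0 were called in either of these comparisons, beside the same 2.83% and 17% of all genes. Zbtb16, a spermatogonial transcription factor, differed by 0.29 in PWDxB6 against B6xPWD (adjusted p = 0.207) and by 0.20 in B6xPWD against B6 (adjusted p = 0.303). Dmrt1, another factor of spermatogonia and Sertoli cells, differed by 0.04 and 0.03. Calls in the remaining comparisons are named after their values were seen. In PWD against B6, beside 18.4% of all genes, the DNA methyltransferase Dnmt3b (0.41, adjusted p = 0.00704) and the histone methyltransferase Ehmt2 (0.36, adjusted p = 0.038) were higher, as was Zbtb16 (0.44, adjusted p = 0.0214). In B6xBALB/C against B6, beside 3.99%, Zbtb16 was higher (0.47, adjusted p = 0.0248) and Tet1 lower (-0.46, adjusted p = 0.0471).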

How the data were processed

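The authors deposited log2 values for 25690 probe sets on 23 arrays, with a range of 1.17 to 13.96 that sets the base. How the background was corrected and which normalization or program was applied is not stated in the labels or the file, and array medians ran from 6.13 to 6.28. Platform annotation gave 20777 probe sets 1 gene symbol and 232 several, and 4681 are unnamed here. Where a gene had more than 1 probe set, the one with the highest mean was used. Each pool counts as a replicate, and since the labels name no litters, p-values measure only the spread between pools. Precision is limited by how many arrays there are. No arrays held identical values.

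A linear model with 7 genotype means and 16 residual degrees of freedom was fitted to all arrays (R 4.3.3, limma 3.58.1), after the 25% dimmest genes were left out. Adjusted p-values are Benjamini-Hochberg over 14745 genes, with a call at 0.05. Differences are the first genotype minus the second, in log2 units. The code was tested on simulated arrays.

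The members, lists and comparisons were chosen with earlier results of these data known. Named were all Rhox genes, up to 4 genes with the smallest p per list, flanking genes, and the 3 genes most like each tested member. Same-numbered arrays did not deviate together: their correlations ran from -0.323 to 0.443 and were over 0.1 for every pair in none of the comparisons with 3 pairs. Alternatives covered filters, scaling, probe sets, variances, array weights, the replicate block, covariates, subsets of groups and each array left out. The ribosomal protein and respiratory chain covariates, and the grouping by X, were added after seeing the data. Figures used Python 3.11.15 and matplotlib 3.10.9.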

Additional observations from a re-analysis of the deposited data

Results flagged for a closer look

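Rhox13 responded differently in the reciprocal hybrids when each was set against the parent strain with the same X. The model's test of that difference, (PWDxB6 minus PWD) minus (B6xPWD minus B6), gave -0.92 (SE 0.234, limma adjusted p = 0.0164), made of 0.08 in PWDxB6 against PWD and 0.99 in B6xPWD against B6. Without PWDxB6 replicate 3 it was -0.807 (adjusted p = 0.0554). With the ribosomal protein gene level of each array as a covariate it was -0.326 (adjusted p = 0.436), and with the respiratory chain gene level -0.468 (adjusted p = 0.213).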

How the results depend on the processing

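No called Rhox difference changed direction under any alternative run. Rhox13 kept its call in 17 of 19 alternatives for B6xPWD against B6, 23 of 24 for B6xPWD against B6xBALB/C, 16 of 19 for PWDxB6 against B6xPWD, 22 of 25 for the difference between the hybrids, and 14 of 24 for B6xBALB/C against BALB/CxB6. Counts of members called were 1 in each of these comparisons as reported. With the ribosomal protein covariate they were 0 in PWDxB6 against B6xPWD, in B6xPWD against B6, in B6xPWD against B6xBALB/C and in the difference between the hybrids. With the respiratory chain covariate they were 0 in the same comparisons except B6xPWD against B6xBALB/C, where it was 1. With the ribosomal covariate only 34 of 14745 genes were called in B6xPWD against B6, against 2503 as reported. For B6xBALB/C against BALB/CxB6 the count was 0 with a pachytene covariate (Rhox13 -0.728, adjusted p = 0.399), with a Sertoli covariate (-0.653, adjusted p = 0.253), with only the groups compared (-0.674, adjusted p = 0.315) and with B6xBALB/C replicates 4 to 6 only (-0.626, adjusted p = 0.444). The cause was not tested. For PWD against B6 the count was 0 with the Sertoli covariate (Rhox9 0.40, adjusted p = 0.0516) and with the strict filter, which leaves Rhox9 out. Counts rose to 2 in B6xPWD against B6 with no filter (Rhox10 added), in PWDxB6 against B6xPWD with array weights (Rhox6, 0.374) and in B6xPWD against B6xBALB/C with array weights (Rhox9, -0.442), with the replicate block (-0.417) and with B6xBALB/C replicates 1 to 3 only. In B6xBALB/C against B6 the count was 1 with the replicate block (Rhox9, 0.395) and with B6xBALB/C replicates 1 to 3 only, and the block, fitted to replicates 1 to 3, changed no other call. Leaving out 1 array gave counts of 0 to 1 for PWDxB6 against B6xPWD, for PWD against B6, for B6xBALB/C against BALB/CxB6 and for the difference between the hybrids. Counts over all genes ranged more widely, from 25 to 4635 in PWDxB6 against B6xPWD, from 34 to 4260 in B6xPWD against B6, from 449 to 4953 in B6xPWD against B6xBALB/C, from 186 to 1005 in PWDxB6 against PWD, from 94 to 321 in PWDxB6 against PWDxPWK, from 46 to 2796 in B6xBALB/C against B6, from 0 to 1618 in B6xBALB/C against BALB/CxB6, and from 477 to 3314 for the difference between the hybrids. Signal over background was not analysed here, which limits what Rhox10 and Rhox11 can show.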

Other observations

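The B6xBALB/C arrays fell into separate ranges for some members by replicate number, a split noticed in the data and not tested. Rhox10 ran from 5.03 to 5.20 in replicates 1 to 3 and from 4.61 to 4.65 in replicates 4 to 6. Rhox1 ran from 6.50 to 6.60 in replicates 1 to 3 and from 6.76 to 6.98 in replicates 4 to 6. Rhox13 overlapped between them, at 7.26 to 7.50 and 7.37 to 7.65, as did Rhox8, at 9.94 to 10.36 and 9.94 to 10.43.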
